A study of Mus musculus with 12 samples.

Results

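Neurons of the arcuate nucleus, at the base of the hypothalamus, set food intake through a small group of peptides. Cells that make agouti-related peptide (Agrp) and neuropeptide Y (Npy) promote feeding. Cells that make pro-opiomelanocortin (Pomc), the precursor of the melanocyte-stimulating hormones (MSH), restrain it, together with the peptide precursor encoded by Cartpt. Circulating hormones reach these neurons through the ghrelin receptor (Ghsr), the leptin receptor (Lepr) and the GLP-1 receptor (Glp1r), and the peptides act through the melanocortin receptors Mc3r and Mc4r and through NPY receptors such as Npy1r. These 10 genes, 4 peptide genes and 6 receptor genes, were taken by name from the 55416 gene identifiers of each library, and all 10 were found. They are described in the hypothalamus of mice carrying CT-26 colon carcinoma cells, a line of mouse origin, and of control mice, with a calf muscle, the gastrocnemius, as the contrast.

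All animals were male BALB/c mice of 7 weeks, per the labels. The CT-26 mice received the cells by injection under the skin of the abdomen and are labelled as having cancer cachexia, a wasting of the body that accompanies some tumours, and their tissue was taken on day 25 after injection. The controls received no tumour, and the labels give no collection day for them, so a difference in the time of collection cannot be told apart from the effect of the tumour. Each of the 4 groups held 3 libraries from 3 numbered mice, and both tissues came from the same 6 mice. No label records food intake or the feeding state at collection.

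The hypothalamus libraries held 27195316 to 52535761 expected counts, the estimated number of fragments per gene summed over genes, and the deepest was that of CT-26 mouse 3. Markers of hypothalamic nuclei, listed as 10 genes, summed to 1551 to 2237 counts per 1000000 (CPM) in the hypothalamus libraries and to at most 1.42 CPM in muscle. The sums differed by group, at 2046 to 2237 CPM with CT-26 and 1551 to 1819 CPM in controls. Of these markers the vasopressin gene Avp was at a mean of 803.7 CPM with CT-26 and 354.4 CPM in controls. Of 17961 genes tested in the hypothalamus, 1575 were called at an adjusted p below 0.05 by edgeR's quasi-likelihood test with Benjamini-Hochberg adjustment over all of them, which is 8.77%. The share called higher with CT-26 was 3.94% and the share called lower was 4.83%, and for 30.3% of tested genes the CPM of the 3 CT-26 libraries did not overlap that of the 3 controls. The dopamine transporter gene Slc6a3 was at 28.9 CPM in control mouse 2 and at 2.43 to 3.64 CPM in the others. This gene was singled out after its values were seen, as an example of a gene with 1 library far from the other 5.

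Agrp and Pomc encode ligands that compete for the same receptors, and their short receptor-binding segments are shown as coding sequence to make that relation visible. Pomc (ENSMUSG00000020660, chr12:3954951-3960642 on the plus strand of GRCm38) is read as 1 precursor of 235 codons, which proteases cut into several hormones. Its coding sequence holds the 4-codon core His-Phe-Arg-Trp 3 times, beginning at codons 81, 129 and 193. The 3 copies are equal at 12 of 12 bases. Agrp (ENSMUSG00000005705) encodes 131 codons, and its Arg-Phe-Phe core begins at codon 110 in the exposed loop with which the protein blocks melanocortin receptors. The stretches below run 5′ to 3′ on the coding strand, from GENCODE M21 transcripts of GRCm38, with the core codons in capitals. They lie at chr12:3959986-3960024, chr12:3960130-3960168 and chr12:3960322-3960360 on the plus strand and at chr8:105566804-105566827 on the minus strand.
Pomc, gamma-MSH: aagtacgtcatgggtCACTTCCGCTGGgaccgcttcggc
Pomc, alpha-MSH: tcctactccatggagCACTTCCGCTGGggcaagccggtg
Pomc, beta-lipotropin: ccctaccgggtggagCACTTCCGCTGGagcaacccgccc
Agrp, receptor-binding loop: tgcCGCTTCTTCaatgccttttgc

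The genes for the 2 feeding-promoting peptides rose in the CT-26 hypothalamus and those for the 2 feeding-restraining peptides fell. Agrp was 7.07-fold and Npy 5.57-fold higher, while Pomc was 2.97-fold and Cartpt 1.59-fold lower. Of the 6 receptor genes, Ghsr and Glp1r rose 1.86-fold and 1.44-fold. Lepr, Mc4r, Mc3r and Npy1r did not pass the test. In all, 6 of the 10 genes were called, 4 higher and 2 lower, beside 8.77% of all tested genes, and these were also the 6 whose CPM did not overlap between the groups, beside 30.3% of all genes. The hypothalamus is a bulk sample, in which fewer cells of a type and less RNA per cell cannot be told apart, nor can more cells from more RNA per cell.

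Agrp encodes the antagonist of the melanocortin receptors. On the scale of TPM, transcripts per 1000000, which divides by transcript length and so lets genes be set beside each other, its level was 138.4, 76.2 and 83.0 in CT-26 mice 1, 2 and 3. In control mice 1, 2 and 3 it was 9.62, 17.7 and 13.9. The lowest CT-26 mouse thus stood above the highest control by a wide margin, and the expected counts behind these values were 800 to 1825 in CT-26 mice and 119 to 239 in control mice. On the CPM scale, normalised by edgeR's TMM factors and not divided by length, the means were 39.4 ± 13.5 and 5.53 ± 1.52 (SD, n = 3). The log2 fold change was 2.82 ± 0.24 (SE; 95% interval 2.28 to 3.36; adjusted p = 0.0002398, edgeR). Among all tested genes its log2 fold change was the 27th highest.

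Npy encodes the most abundant of the 4 peptides in these libraries, an activator of NPY receptors. Its TPM was 1299.72, 632.3 and 909.5 in CT-26 mice 1, 2 and 3 and 139.0, 203.8 and 156.5 in control mice 1, 2 and 3. CT-26 mouse 1 was the highest and mouse 2 the lowest of its group for Npy, as for Agrp, and in the controls mouse 2 was the highest and mouse 1 the lowest for both. The mean CPM was 292.7 ± 106.1 with CT-26 and 52.4 ± 9.35 in controls (SD, n = 3), a log2 fold change of 2.48 ± 0.23 (SE; 95% interval 1.97 to 2.99; adjusted p = 0.0003386, edgeR). Ranked by TPM within each library, Npy stood between 37 and 90 from the top of all genes in CT-26 mice and between 410 and 613 in controls. Agrp moved from ranks 5478 to 8005 in controls to ranks 643 to 1271 with CT-26. The ratio of Npy to Agrp TPM was 8.30 to 10.96 in CT-26 mice and 11.3 to 14.4 in controls, so the ranges of the ratio did not overlap. Npy lies at chr6:49822710-49829507 on the plus strand (ENSMUSG00000029819).

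Pomc moved the opposite way. Its TPM was 11.6, 21.1 and 11.1 in CT-26 mice 1, 2 and 3 and 47.8, 40.4 and 38.9 in control mice 1, 2 and 3. The highest CT-26 value, that of mouse 2, was well under the lowest control. The mean CPM was 10.4 ± 3.58 and 30.6 ± 3.91 (SD, n = 3), and Pomc fell by 1.57 on the log2 scale (SE 0.19; 95% interval -1.98 to -1.16; adjusted p = 0.001019, edgeR). CT-26 mouse 2 held the lowest Agrp and Npy and the highest Pomc of its group, and control mouse 1 held the lowest Agrp and Npy and the highest Pomc among controls.

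Pomc is also the main product of pituitary corticotroph and melanotroph cells, so pituitary genes were read beside it. The sum of the 12 listed pituitary genes was 30.9 to 35.8 CPM in CT-26 and 11.5 to 37.6 CPM in control libraries, and 5 of the 12 were abundant enough to test. Cga, the shared subunit of pituitary glycoprotein hormones, rose by 2.35 on the log2 scale (adjusted p = 0.001074, edgeR) and the transcription factor gene Pitx1 by 1.86 (adjusted p = 0.01714, edgeR). Tbx19, which encodes a factor of corticotroph cells, fell by 0.94 (adjusted p = 0.02854, edgeR), from 1.55 ± 0.151 to 0.828 ± 0.165 CPM (SD, n = 3), and was singled out after its values were seen. The defining hormone genes Gh and Prl were too low to test. Gh was at 0.179, 0.0721 and 0 CPM in CT-26 mice 1, 2 and 3. In control mice 1, 2 and 3 it was at 0.678, 0.02955 and 2.98 CPM. Prl was at 0.0358, 0 and 0 CPM with CT-26 and at 0.542, 0 and 0.472 CPM in controls. Summed over each group, the expected counts of Gh were 7 with CT-26 and 103 in controls, and those of Prl 1 and 29. Lhb, Fshb and Pou1f1 were at or near 0. Tshb, the thyrotropin subunit gene, was present in every library, at 4.401 to 4.48 CPM with CT-26 and 3.05 to 3.81 CPM in controls, and was not called by edgeR (log2 0.39, adjusted p = 0.1025). For Tshb, limma on log2(TPM + 0.5) gave a larger rise and called it (log2 1.22, adjusted p = 0.004023), and DESeq2 did not (0.39, adjusted p = 0.1977). DESeq2 did not call Tbx19 (adjusted p = 0.06384), and limma on log2(TPM + 0.5) called it lower (log2 -0.53, adjusted p = 0.04225). The part of pituitary tissue in the Pomc difference was not tested.

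Cartpt encodes the precursor of the CART peptides, which are made by Pomc neurons and by many other hypothalamic cells. Its TPM was 82.3, 85.0 and 67.9 in CT-26 mice 1, 2 and 3 and 122.2, 126.1 and 126.6 in control mice 1, 2 and 3. The difference was smaller than for the other peptide genes and the mice within each group were closer together. The mean CPM was 61.0 ± 4.38 with CT-26 and 96.7 ± 1.68 in controls (SD, n = 3), and Cartpt fell by 0.67 on the log2 scale (SE 0.06; 95% interval -0.80 to -0.54; adjusted p = 0.0002398, edgeR). By p-value it stood 17th among all genes, next to Agrp at 16th, although its log2 fold change was the 351st lowest.

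**Figure D1:**
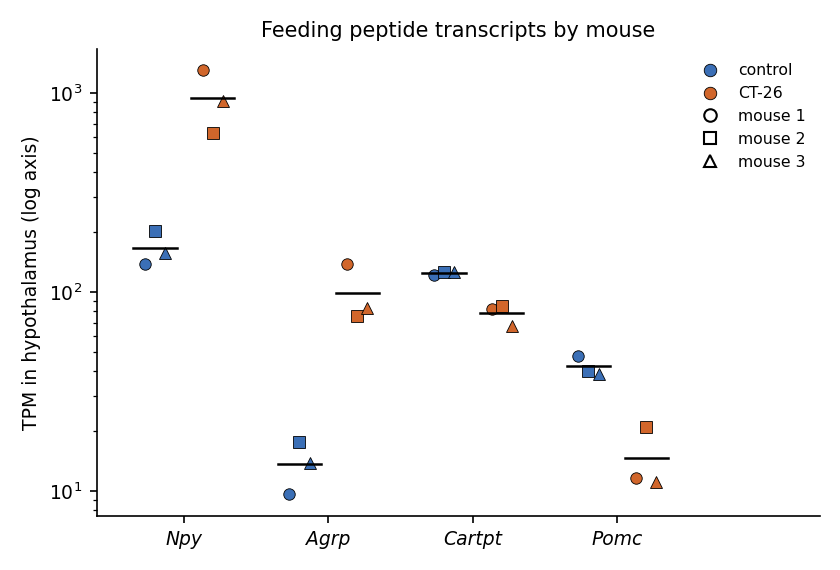
TPM of the 4 peptide genes in the hypothalamus (log axis), with 1 point per mouse and a bar at the group mean of 3 mice; the same symbol in the 2 groups is a different mouse. Agrp lies between 76.2 and 138.4 with CT-26 and between 9.62 and 17.7 in controls, Npy is higher with CT-26 in the same way, and Pomc and Cartpt lie lower with CT-26 with no overlap.

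Within each mouse, the peptide levels were also read as ratios. The ratio of Agrp to Pomc TPM was 11.9, 3.62 and 7.46 in CT-26 mice 1, 2 and 3 and 0.201, 0.439 and 0.357 in control mice 1, 2 and 3. In every control the Pomc transcript was thus the more abundant of the 2 per length, and in every CT-26 mouse the Agrp transcript was. Npy exceeded Cartpt in all 6 mice, with a TPM ratio of 15.8, 7.44 and 13.4 with CT-26 and of 1.14, 1.62 and 1.24 in controls. The ratio of Cartpt to Pomc was 7.08, 4.04 and 6.11 with CT-26 and 2.55, 3.12 and 3.26 in controls. Pomc therefore lost more of its level than Cartpt did, and the ranges of this ratio did not overlap. These ratios follow from the 4 levels above and carry no test of their own.

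**Figure D2:**
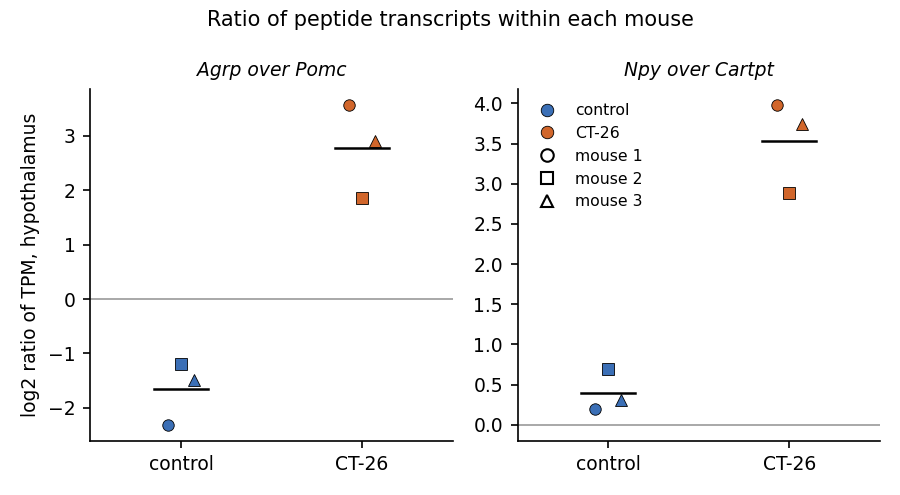
Log2 ratio of Agrp to Pomc TPM and of Npy to Cartpt TPM in each of the 6 hypothalamus libraries, with 1 point per mouse and a bar at the group mean; the grey line at 0 marks equal levels. Agrp to Pomc runs from 1.86 to 3.57 with CT-26 and from -2.31 to -1.19 in controls, so the groups lie on opposite sides of 0, while Npy to Cartpt is above 0 in both groups.

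The annotated span of Agrp is long because of minor transcripts, and the reads behind its values were therefore looked at against its neighbours. The gene spans chr8:105566698-105637393 on the minus strand, 70696 bases, and overlaps Ripor1 (chr8:105605255-105622219) and Ctcf (chr8:105636568-105682922), both on the plus strand. Of 1013 exonic bases of Agrp, 114 are also exonic in Ctcf, which encodes a chromatin insulator protein, and 0 in Ripor1. The same 114 bases are shared with Gm5914, a long non-coding RNA gene on the strand of Agrp with 11.7 to 54.5 expected counts per hypothalamus library. The main Agrp transcript covers chr8:105566698-105568298, is 661 bases long and shares 0 exonic bases with either protein-coding neighbour. The effective length that the authors assigned to Agrp was 414.7 to 455.2 bases in the hypothalamus. This is below the length of all 3 annotated transcripts (661, 674 and 734 bases), so being below 661 does not by itself single out the main transcript. Ghsr, with 1 annotated transcript of 4433 bases, had effective lengths of 4189.54 in CT-26 mouse 1 and 4227.19 in control mouse 1. In these libraries Agrp was at 417.56 and 455.2, short of 661 by almost the same amount as Ghsr was of 4433. The other hypothalamus libraries were alike in this. The effective lengths thus place nearly all hypothalamus Agrp counts on the 661-base transcript. Ctcf was at log2 -0.09 (adjusted p = 0.3233, edgeR) and Ripor1 fell by 0.28 (adjusted p = 0.009517, edgeR), against 2.82 for Agrp. In muscle, Ctcf had 1027 to 2107 and Ripor1 419 to 1184 expected counts per library, and Agrp had 1 to 35. How the deposited counting used strand is not given in the sources used here.

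Among the hormone receptors, Ghsr showed the largest change. The receptor of ghrelin, a stomach hormone that stimulates Agrp neurons, had a TPM of 2.12, 2.14 and 2.57 in CT-26 mice 1, 2 and 3 and of 1.38, 1.21 and 1.16 in control mice 1, 2 and 3. Every CT-26 mouse stood above every control. The mean CPM was 9.04 ± 1.302 and 4.88 ± 0.457 (SD, n = 3), a log2 fold change of 0.90 ± 0.13 (SE; 95% interval 0.61 to 1.19; adjusted p = 0.003171, edgeR). The gene lies at chr3:27371351-27378010 on the plus strand. The call was lost when all 12 libraries shared 1 estimate of the spread (adjusted p = 0.05433, edgeR).

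Glp1r encodes the receptor of glucagon-like peptide 1, a gut and brainstem peptide that reduces feeding. Its TPM was 4.06, 4.20 and 5.0 with CT-26 and 3.44, 2.90 and 3.09 in controls, mice 1 to 3 in each. The groups did not overlap, and CT-26 mouse 3 was the highest. The mean CPM was 23.3 ± 3.39 and 16.3 ± 1.34 (SD, n = 3), a log2 fold change of 0.53 ± 0.11 (SE; 95% interval 0.29 to 0.76; adjusted p = 0.01452, edgeR). Its call was lost without control mouse 2 (log2 0.49, adjusted p = 0.05912, edgeR), with log2(TPM + 0.5) in limma (0.43, adjusted p = 0.08164) and in the fit of all 12 libraries (0.53, adjusted p = 0.1762, edgeR). An antisense gene, AC165951.1, lies within the span of Glp1r (chr17:30901817-30940791), shares 0 exonic bases with it and had 420 to 930 expected counts per hypothalamus library.

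Lepr, which encodes the receptor of the fat hormone leptin, gave different pictures on the 2 scales. Its CPM was 2.79, 4.54 and 3.47 in CT-26 mice 1, 2 and 3 and 2.30, 2.72 and 2.87 in control mice 1, 2 and 3. CT-26 mouse 1 fell inside the control range, and Lepr did not pass the test (log2 0.45 ± 0.19 SE; 95% interval 0.03 to 0.87; adjusted p = 0.1726, edgeR). Its TPM, by contrast, did not overlap: 1.17, 1.2 and 1.36 with CT-26 and 0.55, 0.67 and 1.02 in controls. The scales part because the effective length of Lepr, which RSEM takes from the transcripts it finds, was 2518, 4153 and 2607 bases in CT-26 mice 1, 2 and 3 and 4563, 4362 and 3033 bases in control mice 1, 2 and 3. The gene (chr4:101717404-101815352) has 7 annotated transcripts of 208 to 5542 bases. With 68 to 182 expected counts per library, how the counts divide among them was not resolved here.

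The receptors on which the peptides act did not pass the test. For Mc4r, the melanocortin receptor whose loss causes obesity, TPM was 2.04, 2.18 and 2.14 with CT-26 and 2.40, 1.48 and 2.20 in controls, mice 1 to 3 in each. The CT-26 values lay inside the control range, and the log2 difference was 0.10 ± 0.17 (SE; 95% interval -0.28 to 0.47; adjusted p = 0.7742, edgeR). For Mc3r, a melanocortin receptor also found on Agrp neurons, TPM was 2.56, 3.41 and 2.83 with CT-26 and 3.46, 2.73 and 2.91 in controls. The log2 difference was -0.03 ± 0.13 (SE; 95% interval -0.32 to 0.26; adjusted p = 0.9163, edgeR). For Npy1r, a main receptor of NPY, TPM was 7.30, 7.92 and 8.21 with CT-26 and 8.85, 7.46 and 7.39 in controls, with a log2 difference of 0.01 ± 0.09 (SE; 95% interval -0.19 to 0.22; adjusted p = 0.9568, edgeR). The intervals of these 3 genes reach from -0.32 to 0.47 on the log2 scale at their extremes. For each gene, changes inside its own interval remain compatible with these libraries. The ratio of Mc4r to Mc3r TPM was 0.639 to 0.797 with CT-26 and 0.542 to 0.756 in controls, and these ranges overlapped.

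**Figure D3:**
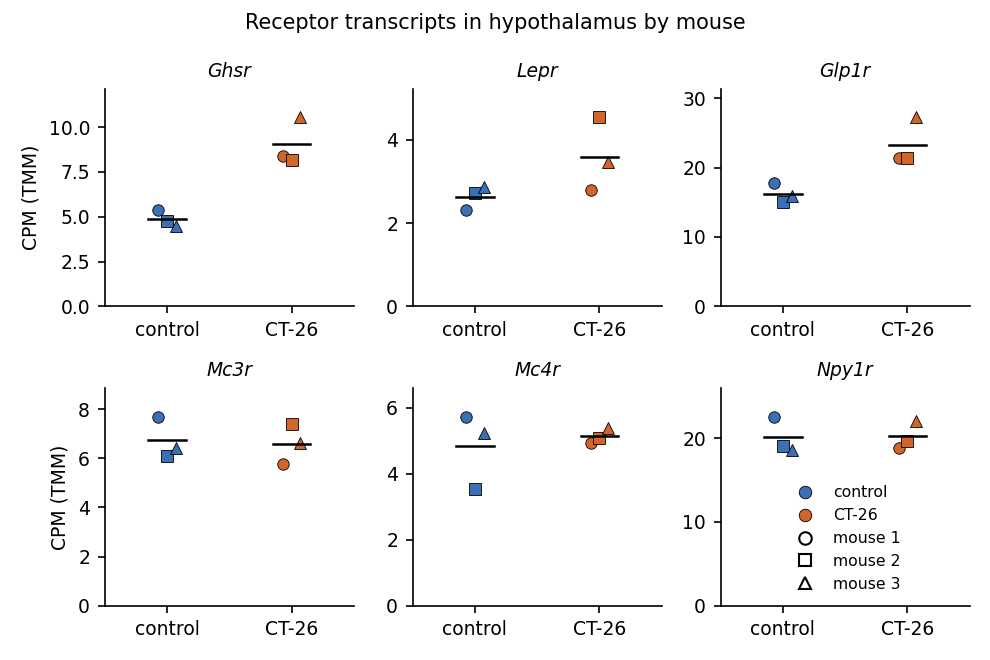
CPM of the 6 receptor genes in the hypothalamus (axis from 0), with 1 point per mouse and a bar at the group mean of 3 mice. Ghsr and Glp1r are higher in every CT-26 mouse than in any control, with means of 9.04 against 4.88 and 23.3 against 16.3 CPM, and the groups overlap for Lepr, Mc4r, Mc3r and Npy1r.

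**Figure D4:**
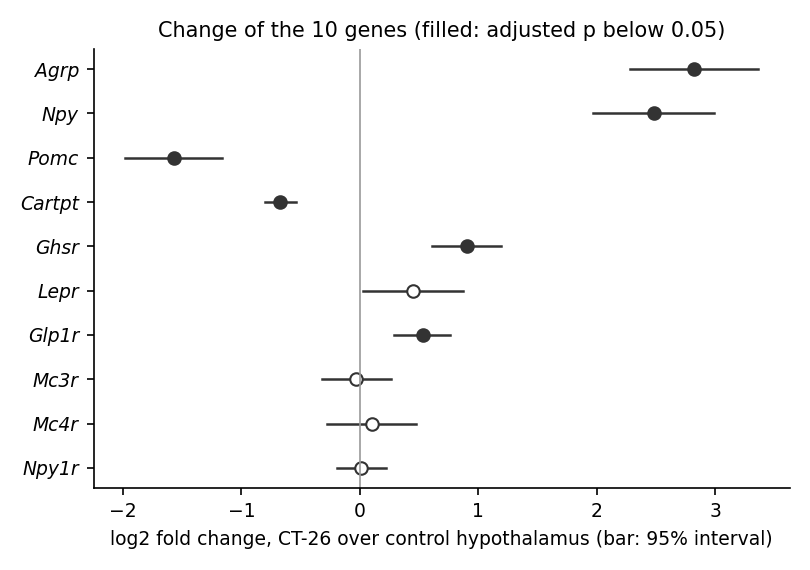
Log2 fold change, CT-26 over control, of the 10 genes in the hypothalamus, with 95% intervals from the edgeR fit of 3 against 3 mice. The intervals of Agrp, Npy, Ghsr and Glp1r lie above 0 and those of Pomc and Cartpt below it, the interval of Lepr (0.03 to 0.87) stops just short of 0, and those of Mc4r, Mc3r and Npy1r include 0.

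The order of the 10 levels per length changed with CT-26. In control mice the mean TPM ran from Npy (166.4) through Cartpt (125.0), Pomc (42.4), Agrp (13.7), Npy1r (7.90), Glp1r (3.14), Mc3r (3.03), Mc4r (2.03) and Ghsr (1.25) to Lepr (0.747). Glp1r and Mc3r were the only neighbours in that order whose ranges over the 3 mice overlapped. In CT-26 mice Npy (947.2) was followed by Agrp (99.2), Cartpt (78.4) and Pomc (14.6). Agrp thus moved from the fourth place to the second, although its range overlapped that of Cartpt. Npy1r (7.81) and Glp1r (4.42) came next, then Mc3r (2.93), Ghsr (2.28) and Mc4r (2.12), whose ranges overlapped from neighbour to neighbour, and Lepr (1.24) was the lowest. The 4 peptide genes were above all 6 receptor genes in both groups.

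Genes with related roles were read from 5 lists, beside the 8.77% of all tested genes that were called; shares called in these lists that are near it are no result about the lists. Of 15 genes for processing and trafficking of the peptides, all tested, 1 rose and 0 fell, with a median log2 fold change of 0.02. That gene was Pcsk2, which encodes a convertase that cuts peptide precursors (239 ± 13.2 to 280 ± 12.9 CPM; SD, n = 3; log2 0.23, adjusted p = 0.03282, edgeR), and limma on TPM did not call it (adjusted p = 0.09987). Of 15 other genes of the melanocortin and NPY families, 9 were tested and none was called by edgeR, DESeq2 or limma on TPM, with a median of -0.14 and 0 at an unadjusted p below 0.05. They included the receptor genes Npy2r (log2 -0.06, adjusted p = 0.6906, edgeR) and Npy5r (-0.21, adjusted p = 0.3044, edgeR). Of 12 transcription factor genes of arcuate neurons, all tested, none was called by any of the 3 tools, with a median of 0.01 and 2 at an unadjusted p below 0.05 in edgeR. Among them were Bsx, whose factor is needed for Agrp and Npy expression (0.07, adjusted p = 0.6749, edgeR), and Isl1 and Tbx3, whose factors act in Pomc neurons (-0.14, adjusted p = 0.4425, and -0.34, adjusted p = 0.1321, edgeR). The median over all tested genes was 0.

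Of 26 genes of leptin, ghrelin, GLP-1 and insulin signalling, 22 were tested, 1 rose and 2 fell, with a median of -0.07. The insulin receptor gene Insr rose by 0.24 (adjusted p = 0.03612, edgeR). The cholecystokinin receptor gene Cckbr fell by 0.42 (adjusted p = 0.01336, edgeR), and Ramp1, which encodes a partner of the calcitonin-family receptors, fell by 0.33 (adjusted p = 0.03158, edgeR). DESeq2 called 3 genes of this list and limma on TPM called 0 (adjusted p = 0.2564 for Insr, 0.07012 for Cckbr and 0.1015 for Ramp1). Socs3, a feedback inhibitor that leptin and cytokines induce, was at 4.91 ± 0.328 and 3.57 ± 1.09 CPM (SD, n = 3) and did not pass (log2 0.45, adjusted p = 0.1929, edgeR). The ghrelin gene Ghrl and the proglucagon gene Gcg were too low to test, at mean CPM of at most 0.170 and 0.0197.

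Of 14 other peptide and transmitter genes of arcuate neurons, 12 were tested, 1 rose and 2 fell, with a median of -0.05. Ghrh, which encodes growth hormone releasing hormone, was at 5.30, 7.71 and 4.46 CPM in CT-26 mice 1, 2 and 3 and at 11.9, 11.05 and 12.4 CPM in control mice 1, 2 and 3. The groups did not overlap, and Ghrh fell by 1.03 on the log2 scale (adjusted p = 0.00565, edgeR). Pdyn, the prodynorphin gene, rose by 0.55 (53.01 ± 7.55 to 77.5 ± 3.66 CPM; SD, n = 3; adjusted p = 0.004582, edgeR). Th, the tyrosine hydroxylase gene of catecholamine neurons, fell by 0.54 (adjusted p = 0.02199, edgeR; adjusted p = 0.07944 with limma on TPM). The enzyme genes of the inhibitory transmitter GABA, which Agrp neurons also release, did not pass: Gad1 was at log2 0.00 (adjusted p = 0.9823, edgeR) and Gad2 at -0.05 (adjusted p = 0.7793, edgeR). The members of these lists that are named here without a call were chosen after their values were seen.

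Other cell types were read in the same libraries. All 7 blood genes rose, summing to 566.1 to 719.0 CPM with CT-26 and 242.7 to 384.5 CPM in controls, and 6 of 8 oligodendrocyte genes fell, summing to 3126 to 3378 against 4597 to 5132 CPM. Those with the smallest p were the haemoglobin gene Hba-a1 (log2 1.23) and the haem synthesis gene Alas2 (1.39), and the myelin gene Mag (-0.79). The blood list also holds the neutrophil genes S100a8 (log2 7.62) and S100a9 (6.3), named for the size of their change. S100a8 was at 31.45, 7.68 and 3.03 CPM in CT-26 mice 1, 2 and 3 and at most 0.1815 CPM in controls. Neuron genes summed to 4240 to 4386 CPM with CT-26 and 4187 to 4637 CPM in controls, and 1 of 8 was called, Tubb3 (log2 -0.28). Tanycyte and ependyma genes, which mark the cells lining the ventricle beside the arcuate nucleus, summed to 221.1 to 251.8 and 221.1 to 264.8 CPM. Of these 10 genes, 2 were lower, Foxj1 (log2 -0.54) and Gpr50 (-0.55), and 1 was higher, Dio2 (0.57). Of them limma on TPM called 0. Dio2 is named beyond the 2 with the smallest p, for its direction. Microglia genes summed to 170.2 to 225.6 against 199.4 to 215.8 CPM, with 0 of 7 called and 4 at an unadjusted p below 0.05 in edgeR, and astrocyte genes summed to 2184 to 2426 against 2420 to 2607 CPM, with 2 of 7 lower, Aqp4 (log2 -0.95) and Gja1 (-0.34). Of the other 5 astrocyte genes, none was called in edgeR, and Gjb6 (0.28, adjusted p = 0.09248, edgeR) and Aldh1l1 (0.22, adjusted p = 0.1081, edgeR) had the opposite sign. Markers of neighbouring areas were uneven: those of the ventromedial hypothalamus summed to 181.5 to 196.5 against 203.1 to 222.5 CPM with 0 of 6 called, and those of the thalamus to 361.8 to 373.9 against 416.8 to 469.9 CPM with 1 of 8 higher, Prkcd (log2 0.61), and 1 lower, Calb2 (-0.29; not called by limma on TPM, adjusted p = 0.06926). The paraventricular and supraoptic list summed to 1384 to 1425 against 714.9 to 1021 CPM, where Avp, the vasopressin gene, was the 1 of 6 called and rose by 1.18 (adjusted p = 0.000606, edgeR). The sums of the lateral hypothalamus, 596.3 to 780.7 and 497.1 to 906.0 CPM with 0 of 4 called, and of the suprachiasmatic nucleus, 83.1 to 110.6 and 103.9 to 113.4 CPM with 0 of 6 called, overlapped between the groups. Choroid plexus genes summed to 47.6 to 51.2 against 38.4 to 44.5 CPM, with 1 of 6 tested higher, the water channel gene Aqp1 (log2 1.11), which limma on TPM did not call (adjusted p = 0.08164) and to which DESeq2 gave no adjusted p. Of the 3 lists of neighbouring areas with 0 called by edgeR, 1 gene of the suprachiasmatic list was at an unadjusted p below 0.05, and DESeq2 and limma on TPM called 0 genes in the 3 and in the microglia list. The part of these shifts in the differences of the peptide and receptor genes was not tested.

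The genes whose profile over the 6 hypothalamus libraries was nearest to each peptide gene were found from log2 CPM, centred on each gene's control mean, by the root-mean-square difference over 12789 genes. Nearest to Agrp were Npy (0.32), Vwf (0.39), which encodes the von Willebrand clotting factor of endothelium, and the sulfotransferase gene Sult1a1 (0.44). Nearest to Npy were the glucuronosyltransferase gene Ugt1a6a (0.25), Sult1a1 (0.31) and Agrp (0.32). Agrp and Npy were thus among the 3 nearest of each other. Nearest to Pomc were the oligodendrocyte genes Opalin (0.18), Enpp6 (0.19) and Ugt8a (0.22). Opalin is one of the oligodendrocyte genes counted above, and all 3 fell (log2 -1.46, -1.65 and -1.29). Nearest to Cartpt were Inava (0.04), Lims2 (0.05) and Map6d1 (0.06), each lower by 0.63 to 0.67 on the log2 scale. On log2(TPM + 0.5), 7 of the 12 genes stayed among the nearest. With 6 libraries in 2 groups, likeness is mostly a similar log2 fold change.

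In the gastrocnemius, where 14265 genes were tested and 38.0% were called, only Lepr and Npy1r were abundant enough to test and neither was called. Lepr was at 41 to 124 expected counts in CT-26 mice and 46 to 57 in control mice (2.19 ± 0.540 and 1.94 ± 0.260 CPM; SD, n = 3; log2 0.19 ± 0.25 SE, adjusted p = 0.5676, edgeR). Npy1r was at 78 to 98 and 78 to 100 expected counts (2.51 ± 0.554 and 3.25 ± 0.446 CPM; SD, n = 3; log2 -0.38 ± 0.22 SE, adjusted p = 0.2027, edgeR). The test of the difference between tissues in the CT-26 effect called 33.2% of the 13572 genes tested in both, and neither of these (Lepr 0.27 ± 0.32 SE, adjusted p = 0.60; Npy1r 0.42 ± 0.22 SE, adjusted p = 0.1953, edgeR).

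The other 8 genes were at or near 0 in muscle. Mc3r and Glp1r had 0 counts in all 6 libraries, which allows up to 3 counts per library, for counting error only. Scaled by library totals without TMM, unlike the other CPM here, that is 0.0701 to 0.115 CPM. Ghsr and Mc4r had 1 count in 1 library each, Cartpt at most 2, and Pomc 1 to 9. Npy had 18, 1 and 1 expected counts in CT-26 mice 1, 2 and 3 and 1, 9 and 2 in control mice 1, 2 and 3. Agrp had 35, 1 and 15 with CT-26 and 4, 1 and 4 in controls and fell under the minimum count for testing. Without CT-26 mouse 2 it passed the minimum and was called (log2 2.42, adjusted p = 0.01088, edgeR), and with no minimum count in all 6 libraries it was not (log2 1.99, adjusted p = 0.07094, edgeR). The difference between the tissues in the CT-26 effect on these 8 genes could not be read at such counts.

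**Figure D5:**
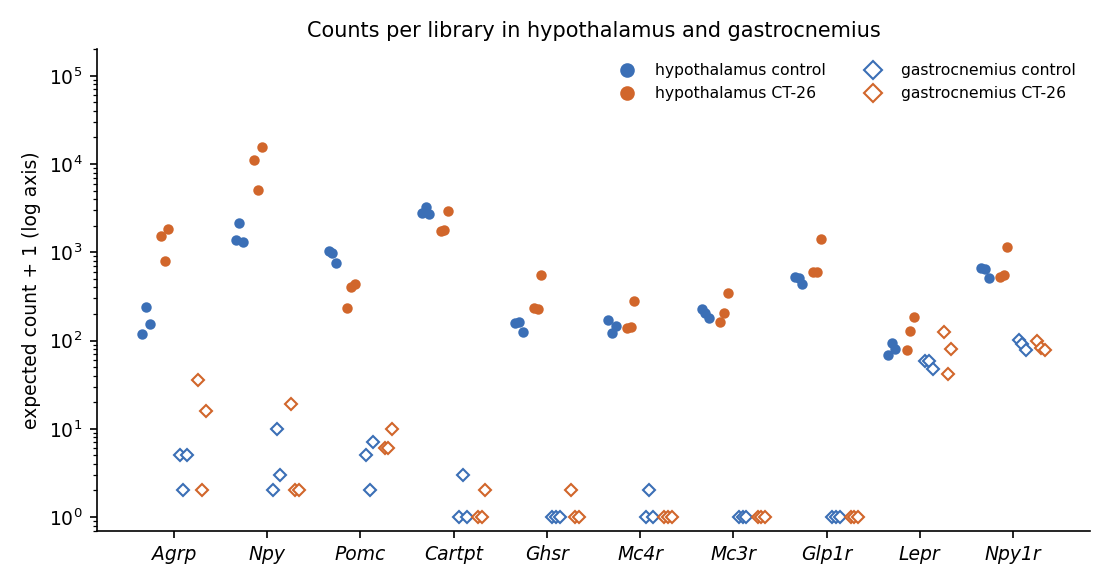
Expected count of each of the 10 genes in each of the 12 libraries on a log axis of count + 1, hypothalamus and gastrocnemius, with CT-26 and control mice marked. Lepr and Npy1r have 41 to 124 counts in every muscle library, and the other 8 genes have 0 to 35.

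Sequence before the start sites was read for the genes that have an entry in the RefSeq promoter table of GRCm38.p6, which are 8 of the 10 genes with 9 windows of 250 bases; Agrp and Mc4r have none there. The 3 short motifs searched for were, on both strands, TTCNNNGAA of STAT factors, GTAAACA of FOXO factors and TGACG, the core of the cAMP response element. Of 32851 promoter windows of the same length in the table, 7.02%, 3.17% and 17.8% hold them. Cartpt was the 1 gene of the 8 with a match. Its pair of TGACG matches, 1 on each strand, overlap and begin 112 and 109 bases before the RefSeq start site. In the GENCODE annotation a longer Cartpt transcript already includes these bases. The 30 bases around the pair, chr13:99900777-99900806 on the minus strand, are printed with the 8 matching bases in capitals.
Cartpt, paired TGACG matches: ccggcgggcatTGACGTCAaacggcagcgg
The windows of Npy, Pomc, Ghsr, Lepr, Glp1r, Mc3r and Npy1r held none of the 3 motifs, which says only that these letters are not in those windows.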

How the data were processed

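Total RNA of the gastrocnemius and hypothalamus of 6 mice was sequenced as directional paired libraries, per the labels' protocols. Per the submitters' processing notes, reads were trimmed with Trim Galore 0.6.6, aligned to GRCm38 with STAR 2.7.9a and quantified with RSEM 1.3.3; the annotation release and the strand setting are not given in the sources used here. The authors deposited, per gene and library, expected counts, which are estimated fragment numbers that need not be whole, TPM, which are scaled per length and library, and effective lengths. Of 55416 identifiers, 52135 were named from GENCODE M21, holding 99.648% of counts.

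Expected counts were rounded, and the 6 libraries of each tissue were fitted separately in edgeR, version 4.0.16, under R 4.3.3 (filterByExpr, TMM, glmQLFit and glmQLFTest, Benjamini-Hochberg over all tested genes; called at adjusted p below 0.05). How the CT-26 effect differed between tissues was read from an interaction term fitted over all 12 libraries. CPM are per 1000000 counts after TMM. The scripts were checked on simulated counts. The same mice gave both tissues, which is a real pairing by the mouse numbers. The interaction fit above held no term for the mouse, and an alternative with a mouse block is given below. Same-numbered libraries of the 2 tissues correlated, as deviations from group means, at 0.06, 0.167 and 0.04 in controls and 0.053, -0.025 and -0.103 with CT-26. Hypothalamus library 2 and muscle library 3 of the CT-26 mice reached 0.097, so these correlations do not show the pairing. Alternatives were DESeq2 1.42.0, limma 3.58.1 on log2(TPM + 0.5), other filters and scalings, a replicate block, 1 fit of all libraries, and leaving out each mouse.

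Named genes were all 10 members, Ctcf and Ripor1, the 3 nearest profiles to each peptide gene among tested genes whose mean log2 CPM was 1 or more, up to 4 called genes with the smallest p per pathway list and up to 2 per marker list, with exceptions stated where they occur; some genes that the rule took are left out. The members and lists were chosen with earlier results of these data known.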

Additional observations from a re-analysis of the deposited data

How the results depend on the processing

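Agrp, Npy, Pomc and Cartpt were called in the same direction in all 14 alternatives (log2 2.52 to 3.06, 2.20 to 2.74, -1.86 to -1.40 and -0.69 to -0.60). Ghsr (0.66 to 0.98) lost its call in the fit of all 12 libraries (0.90, adjusted p = 0.05433, edgeR) and Glp1r (0.40 to 0.60) in the 3 settings given above. Of the 10 genes, 4 to 6 were called. Lepr was called in none (0.28 to 0.59, adjusted p = 0.101 to 0.4763). Leaving out 1 mouse took Mc3r from -0.10 to 0.07 (0.05 without CT-26 mouse 1, 0.07 without control mouse 1), Mc4r from 0.24 to -0.08 (the latter without control mouse 2), Npy1r from 0.10 to -0.05, -0.01 and -0.04 (without CT-26 mouse 3, control mouse 2 and control mouse 3) and the tissue difference of Lepr from 0.57 to -0.08 (without CT-26 mouse 2); limma on TPM put Npy1r at -0.01. None of these sign changes was past the threshold, and their cause was not tested.

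The number of hypothalamus genes called, 1575, was 520 with limma on log2(TPM + 0.5), 2598 with no filter, 162 in the fit of all 12 libraries, where the muscle libraries share the estimate of the spread, and 576 to 1266 when 1 mouse was left out. In the gastrocnemius, leaving out 1 mouse gave 3547 to 5450 genes and 0 to 1 of the 10 members (Agrp, without CT-26 mouse 2). For the difference between tissues it gave 3204 to 4604 of the 4952 genes called over all genes in that fit. Of the genes nearest to the peptide genes, 7 of 12 were shared with log2(TPM + 0.5).

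With a replicate block, 1111 hypothalamus and 5721 gastrocnemius genes were called, and with a mouse block 3865 genes for the difference between tissues. The numbers name different mice in the 2 arms, and same-numbered mice deviated together at r of -0.103, -0.025 and 0 in the hypothalamus, so the labels pair nothing there; not every library correlated best with its own number. The block changed no call of the 10 genes. The precision of Lepr is limited by 68 to 182 counts per hypothalamus library and that of the muscle values by counts near 0.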
